A study of Mus musculus with 4 samples.

Results

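The miR-379/miR-410 cluster is a run of miRNA hairpins on mouse chromosome 12 that are made from 1 strand of an imprinted domain. Its members were taken by name from the count tables, as every listed mature arm of the hairpins numbered from miR-379 to miR-410 in the cluster, whatever its letter or arm. The rule found 77 of the 1966 listed miRNA rows, from 39 hairpins. Of these, 69 had at least 1 read and 8 had 0 reads in all 4 libraries. Small RNA was sequenced from primary cultures of cortical neurons from mouse embryos, 2 libraries of WT and 2 of APP/PS1 (TgAD) animals, to ask which miRNA differ in neurons of this model of Alzheimer's disease. The TgAD genotype adds a transgene for mouse/human chimeric APP bearing the Swedish mutations and another for human presenilin 1 that lacks an exon, and WT neurons carry neither. Both are expressed from elements of the prion gene's promoter, active chiefly in brain neurons, and both genotypes share the B6C3 background. According to the methods of the study each embryo was cultured on its own before it was genotyped, so that each library is 1 embryo, but the litter of each is not given. The neurons were taken at E16.5 according to the labels, or less than 1 day earlier according to the methods, and were kept for 5 days in vitro in serum-free medium without further treatment.

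A miRNA hairpin is cut by Drosha and Dicer into a duplex of a 5p and a 3p arm, and Argonaute keeps mostly 1 of them, which then represses mRNA that pair with its seed. The miR-379/miR-410 cluster lies in the Dlk1-Dio3 domain, where only the maternal chromosome makes the long noncoding RNA Meg3, Rian and Mirg and the miRNA within their transcription unit. In the brain these miRNA are enriched in neurons, their precursor is induced by neuronal activity through Mef2, and several of them act on the growth of dendrites and on synapses.

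The sum of counts per library was between 2070204 and 4811010 reads, so that 3 reads, taken as the floor, equal between 0.746 and 1.28 CPM (reads scaled to a common library size after TMM normalization). These floors allow for counting error only. The reads have no molecular identifiers, so that copies of 1 molecule made in amplification cannot be told from separate molecules. The transgenes cannot be seen in miRNA counts, and the genotype labels could therefore not be checked against them. A deposited table of normalized values gave other names to the same libraries. Its first WT column held the counts of TgAD library 1 in 100% of 674 rows compared, its second WT column those of WT library 1, and its first TgAD column those of TgAD library 2. The second TgAD column matched none of the 4 libraries, and no column held the counts of WT library 2. The label of WT library 2 could thus not be compared between both sources. The count tables were used with their own labels, and the calls, fold changes, arm ratios and shares of reads were also obtained without TgAD library 1, the library whose genotype differs between both sources.

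In RefSeq (GRCm38.p6) 35 of the hairpins lie on the plus strand of chromosome 12 between 109709060 (Mir379) and 109747960 (Mir3072), a span of 38901 bp. The lincRNA gene Mirg (ENSMUSG00000097391.8, GENCODE M21) runs on the same strand from 109729764 to 109749460. Of these hairpins 22 lie upstream of it and 13 within it, of which 8 overlap an exon in at least 1 of the 12 annotated transcripts and 5 are intronic. Mir299b overlaps Mir299a on the opposite strand, and the hairpin of miR-496b, which the naming rule also takes, lies on chromosome 19. No hairpin entry was found for miR-666 and miR-544, which these counts of hairpins leave out. Their mature arms lie upstream of Mirg. Mature sequences were found in RefSeq for 73 of the 77 arms, and those without an entry are miR-376c-3p, miR-485-5p, miR-487b-3p and miR-539-3p. Sequences are written 5′ to 3′, with the seed (bases 2 to 8) in capitals. The first 5 are arms whose change was called in the fit reported and in all 12 alternative fits of the count tables, 4 of them lower and the last higher in TgAD. miR-376c-3p, lower in the same fits, has no sequence here.
miR-544-3p, chr12:109729371-109729392 (+): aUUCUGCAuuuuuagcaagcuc
miR-377-3p, chr12:109740553-109740574 (+): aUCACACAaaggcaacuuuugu
miR-154-3p, chr12:109738474-109738495 (+): aAUCAUACacgguugaccuauu
miR-300-5p, chr12:109724318-109724339 (+): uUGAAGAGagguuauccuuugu
miR-381-3p, chr12:109726870-109726891 (+): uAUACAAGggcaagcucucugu

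The next 4 are shown because the arms of 1 hairpin changed in opposite directions (miR-377, with its 3p arm above, and miR-369) or 1 arm changed while its abundant partner was not called (miR-300, with its 5p arm above).
miR-377-5p, chr12:109740515-109740536 (+): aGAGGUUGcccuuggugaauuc
miR-369-5p, chr12:109743431-109743452 (+): aGAUCGACcguguuauauucgc
miR-369-3p, chr12:109743466-109743486 (+): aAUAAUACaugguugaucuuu
miR-300-3p, chr12:109724363-109724384 (+): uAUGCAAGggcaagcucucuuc

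The last 4 are pairs of arms that share a seed within the cluster. The 5p arms of miR-376b and miR-376c also share a run of at least 18 bases, but not their full sequence. Mapped without mismatch, only reads confined to the shared run would fit both arms.
miR-379-3p, chr12:109709102-109709123 (+): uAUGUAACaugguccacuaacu
miR-411-3p, chr12:109710225-109710246 (+): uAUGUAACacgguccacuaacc
miR-376b-5p, chr12:109723471-109723492 (+): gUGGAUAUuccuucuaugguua
miR-376c-5p, chr12:109722733-109722754 (+): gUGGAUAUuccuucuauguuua

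The cluster took a larger share of the counted reads in TgAD, and the difference lay in miR-381-3p. In the WT libraries 8.66% and 7.29% of all counted reads fell on the 77 rows, against 10.1% and 9.07% in TgAD. The TgAD libraries lay above both WT libraries, and the mean difference of 1.61 percentage points compares with a pooled SD of 0.854 (n = 2 per genotype). Without TgAD library 1 it was 1.09 points. miR-381-3p alone, which is needed for activity-dependent growth of dendrites, took 3.70% and 2.39% of the reads in WT and 5.90% and 5.14% in TgAD. All other cluster rows together took 4.95% and 4.90% in WT and 4.19% and 3.93% in TgAD, which is the opposite order. miR-381-3p was thus 42.8% and 32.8% of the reads of the cluster in WT and 58.5% and 56.7% in TgAD. Shares depend on the other miRNA of a library. The leading miRNA of every library was miR-99a-5p, at 15.8% and 16.7% in WT and 27.0% and 31.8% in TgAD, and without it the difference in the share of the cluster was 4.04 percentage points. In CPM, the cluster without miR-381-3p was at 44994 ± 1911 in WT and 44569 ± 3419 in TgAD (SD, n = 2), a difference smaller than the spread between libraries. An exact permutation test of 2 libraries against 2 cannot give a two-sided p below 0.333, and the shares are therefore a description. In bulk RNA of a culture, fewer cells of a type and less RNA per cell cannot be told apart.

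**Figure D1:**
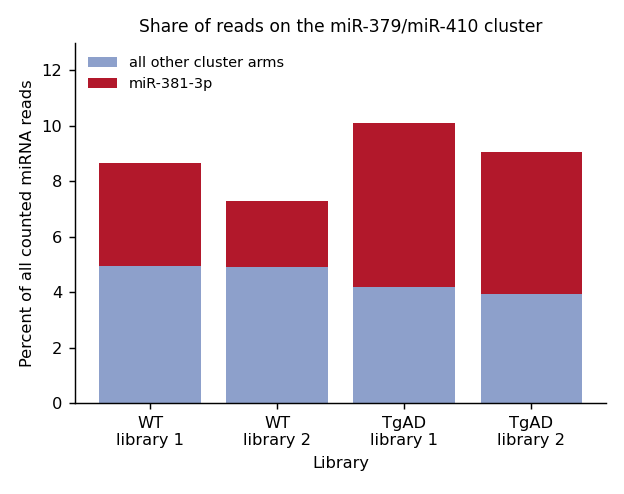
Percent of all counted miRNA reads on cluster arms in each library, with miR-381-3p in red and all other cluster arms in blue. The red part grew from 3.70% and 2.39% in the WT libraries to 5.90% and 5.14% in TgAD, while the blue part was lower in both TgAD libraries.

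Arms of the cluster changed in both directions between TgAD and WT. Of the 59 arms with enough reads to be tested, 22 (37.3%) were called by edgeR's quasi-likelihood test at a log2 fold change over 0.6 and an adjusted p under 0.1. Among all 496 tested miRNA 33.1% were called. Called lower in TgAD were 12 arms, with log2 fold changes from -2.26 to -0.79, and 10 were called higher, from 0.64 to 1.13. These are 20.3% and 16.9% of the tested arms, beside a background of 17.3% lower and 15.7% higher, so that the shares of called arms were close to those of all miRNA. At the stringent cutoffs of the study (1 for the log2 fold change, 0.01 for the adjusted p), 3 arms were called, all of them lower, against 4.44% of all tested miRNA. Both TgAD libraries lay on 1 side of both WT libraries in 41 of the 59 arms (69.5%, background 63.1%), above in 18 and below in 23, and all 22 called arms are among the 41. The median log2 fold change was 0.00 over the cluster and 0.03 over all tested miRNA.

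The split depends on how the libraries are scaled. With total counts as library size, 19 of the 59 tested arms were lower and 2 higher. Of all 496 tested miRNA, 122 were lower and 43 higher with this scaling. This scaling moved the median log2 fold change of all tested miRNA from 0.03 to -0.23 and that of the cluster from 0.00 to -0.26, so that both moved together. All 12 lower arms were still called under it, and of the 10 higher arms miR-381-3p and miR-377-5p were. Without TgAD library 1 the median log2 fold change was -0.24 over the cluster and -0.10 over all tested miRNA. Without WT library 1 these medians were 0.03 and 0.08. In both fits fewer arms were called higher, in the cluster as over all tested miRNA. All 22 called arms had the same direction in each of the 4 fits that left out 1 library.

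**Figure D2:**
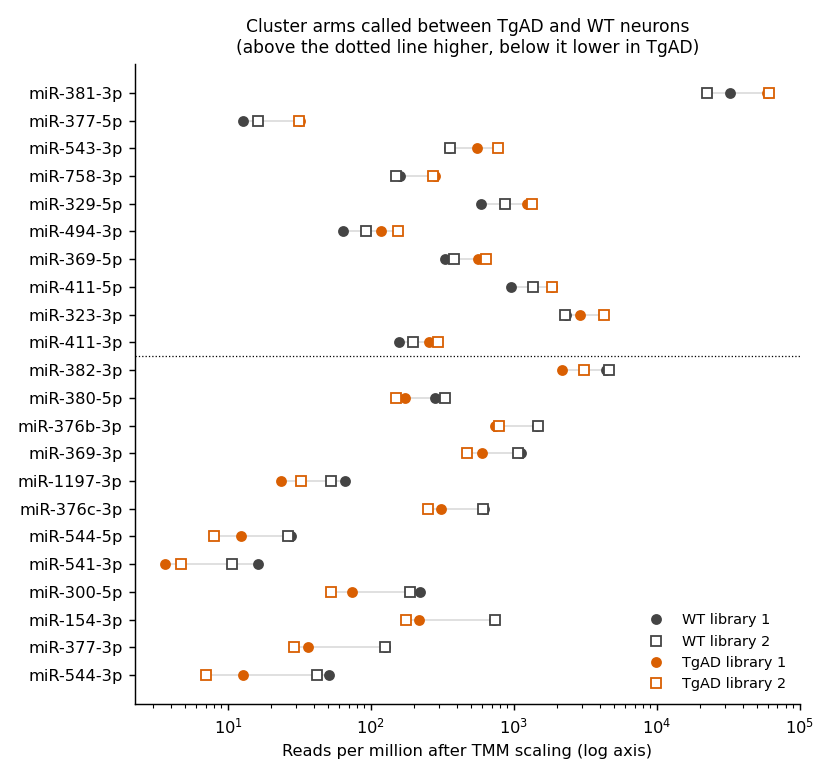
CPM after TMM scaling (log axis) of the 22 called arms in each of the 4 libraries, filled circles for library 1 and open squares for library 2, with WT in grey and TgAD in orange. The libraries of both genotypes do not overlap in any row, and the widest gaps belong to miR-544-3p, miR-377-3p, miR-154-3p and miR-300-5p.

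The arms that fell most came from miR-544, miR-377, miR-154 and miR-300. miR-544-3p, the more abundant arm of its hairpin, was at 51.1 and 41.9 CPM in WT and at 12.8 and 6.96 in TgAD. The fall of 4.79-fold (log2 fold change -2.26, SE 0.362, edgeR adjusted p = 0.0104) was the largest in the cluster, from few reads, 120 and 122 in WT against 35 and 28 in TgAD. Its partner miR-544-5p fell too, from 27.7 and 26.1 to 12.4 and 7.96 CPM (log2 fold change -1.42, SE 0.327, edgeR adjusted p = 0.0278). These were the only paired arms of 1 hairpin that were both called lower.

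miR-377-3p, by far the main arm of its hairpin in WT, fell 3.86-fold. Its level was 125 and 126 CPM in WT and 36.1 and 29.1 in TgAD (log2 fold change -1.95, SE 0.239, edgeR adjusted p = 0.00834). miR-154-3p was at 727 and 745 CPM in WT, and at 215 and 177 in TgAD (log2 fold change -1.91, SE 0.203, edgeR adjusted p = 0.00834). In both, the WT libraries lay close together and the TgAD libraries well below them.

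miR-300-5p, the minor arm of miR-300, went from 219.6 and 189 CPM in WT to 73.3 and 53.0 in TgAD (log2 fold change -1.70, SE 0.251, edgeR adjusted p = 0.00943). Together with miR-377-3p and miR-154-3p it makes up the 3 arms past the stringent cutoffs. miR-541-3p fell from 16.2 and 10.6 to 3.64 and 4.72 CPM, which rests on 38 and 31 reads against 10 and 19 (log2 fold change -1.64, SE 0.400, edgeR adjusted p = 0.0318). Its call was lost without WT library 1 (edgeR adjusted p = 0.203).

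In the miR-376 family the 3p arms of miR-376c and miR-376b fell. The family is known for A-to-I editing of its precursors in the brain, and because the reads were mapped without mismatch an edited arm would not have been counted. Editing was not analysed here. miR-376c-3p was at 618 and 609 CPM in WT and 309.8 and 253 in TgAD (log2 fold change -1.12, SE 0.199, edgeR adjusted p = 0.0152). miR-376b-3p, a repressor of autophagy genes, was at 1443 and 1482 against 744 and 783 (log2 fold change -0.94, SE 0.179, edgeR adjusted p = 0.0185). The third 3p arm, miR-376a-3p, had 143 and 54.3 CPM in WT and 71.4 and 50.7 in TgAD, so that its genotypes overlapped and it was not called (log2 fold change -0.69, SE 0.464, edgeR adjusted p = 0.331). Without WT library 1 its log2 fold change was 0.18, and without WT library 2 it was -1.25 and called (edgeR adjusted p = 0.0176). The 5p arms of miR-376a, miR-376b and miR-376c had log2 fold changes of -0.43, -0.62 and -1.01 and were not called either. Both TgAD libraries lay below both WT libraries in each. miR-376c-5p rests on few reads, 10 and 14 in WT and 7 and 8 in TgAD. miR-376b-5p was called lower with total counts as library size (-0.88), with DESeq2 (-0.64) and with the replicate block (-0.60), and miR-376a-5p with total counts (-0.70). After the correction for GC content their log2 fold changes were 0.054 and 0.0019, and that of miR-376c-5p was -0.15.

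The other 4 lower arms covered a wide range of levels. miR-369-3p, known to bind AU-rich elements and to act on N-cadherin in neurogenesis, had 1116 and 1072 CPM in WT and 598 and 474 in TgAD (log2 fold change -1.03, SE 0.202, edgeR adjusted p = 0.0192). It holds the lowest GC content of the cluster arms called (23.8%), and once each library was corrected for GC content its log2 fold change was 0.15 (edgeR adjusted p = 0.665). miR-382-3p, among the 10 most abundant arms, had 4433 and 4664 CPM in WT and 2171 and 3101 in TgAD (log2 fold change -0.79, SE 0.233, edgeR adjusted p = 0.0525). miR-1197-3p had 65.5 and 52.5 against 23.3 and 32.6 (log2 fold change -1.07). miR-380-5p, which falls outside the rule for named arms and was named after its values were seen, had 280.5 and 331 against 173 and 149.7 (log2 fold change -0.92). Both were called (edgeR adjusted p = 0.0394 and 0.0276), but miR-1197-3p not without WT library 1 or TgAD library 1 (edgeR adjusted p = 0.156 and 0.101), and miR-380-5p not without WT library 2 (edgeR adjusted p = 0.125).

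Among the arms that rose, miR-381-3p stood apart in level. It was the most abundant arm of the cluster, at 32626 and 22601 CPM in WT and at 59351 and 61475 in TgAD. The rise was 2.19-fold (log2 fold change 1.13, SE 0.255, edgeR adjusted p = 0.0276). It was the one higher arm called in all 12 alternative fits of the count tables, among them each fit without 1 library. The TgAD libraries lay close together, while the WT libraries differed by more.

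miR-377-5p, the partner of the falling miR-377-3p, rose 2.18-fold at a low level, from 12.8 and 16.1 CPM to 32.1 and 31.3 (log2 fold change 1.12, SE 0.277, edgeR adjusted p = 0.0334). Its call was lost without WT library 1 and without TgAD library 1 (edgeR adjusted p = 0.170 and 0.102). miR-543-3p, which acts on N-cadherin like miR-369-3p, had 354 and 355 CPM in WT against 551 and 772 in TgAD (log2 fold change 0.90, SE 0.226, edgeR adjusted p = 0.0341). It kept its call in each fit without 1 library and lost it with total counts as library size, where its log2 fold change was 0.62.

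The other 7 higher arms had smaller fold changes. miR-329-5p, from a hairpin that is required for activity-dependent growth of dendrites, had 592 and 863 CPM in WT and 1236 and 1347 in TgAD (log2 fold change 0.83). miR-758-3p had 160.0 and 149.7 against 279 and 272 (0.83), and miR-494-3p had 63.8 and 92.0 against 118 and 155 (0.81). miR-369-5p, the partner of the falling miR-369-3p, had 329.9 and 379 against 559 and 641 (0.76).

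In miR-411 both arms rose, the only hairpin where they did. miR-411-5p had 949.6 and 1369 CPM in WT and 1847 and 1858 in TgAD, and miR-411-3p had 156 and 198 against 257 and 296, with log2 fold changes of 0.68 and 0.64. miR-323-3p had 2317 and 2295 against 2919 and 4306 (log2 fold change 0.65). In these 7 arms edgeR's adjusted p ran from 0.0276 in miR-758-3p to 0.0983 in miR-323-3p. Each of the 7 calls was lost under total-count scaling, and also without WT library 1, where edgeR's adjusted p ran from 0.104 in miR-758-3p to 0.433 in miR-411-3p. Without WT library 2 the calls of miR-411-3p, miR-323-3p, miR-758-3p and miR-369-5p were lost (edgeR adjusted p from 0.102 to 0.179), without TgAD library 1 those of both miR-411 arms, miR-329-5p and miR-494-3p (edgeR adjusted p from 0.108 to 0.207), and without TgAD library 2 those of both miR-411 arms, miR-323-3p and miR-494-3p (edgeR adjusted p from 0.107 to 0.296).

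In 2 hairpins the arms were called in opposite directions. Both arms are cut from the same precursor, so their ratio within a library does not depend on how libraries are scaled. The ratio was not corrected for the GC content of the arms. In 24 hairpins both arms were tested, and in 10 of these (41.7%) their log2 fold changes had opposite signs, beside 47.1% of the 138 pairs of 5p and 3p arms of 1 name among all tested miRNA. The pairs called in opposite directions were miR-377 and miR-369, with a lower 3p and a higher 5p arm in each, and among all 138 pairs 6 were called in opposite directions. No hairpin had a called higher 3p arm beside a called lower 5p arm.

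The ratio of 3p to 5p reads was compared for all hairpins with at least 10 reads on the weaker arm, by limma over 197 hairpins with 31 from the cluster. It was called in 8 cluster hairpins (25.8%) at an adjusted p under 0.1, beside 28.4% of all hairpins. In miR-377 the 3p arm was 90.7% and 88.6% of the reads of the hairpin in WT and 52.9% and 48.1% in TgAD, so that both arms came to about equal numbers (difference in log2 ratio -3.08, SE 0.326, limma adjusted p = 0.00754). The reads behind it were few, 99 on the 3p and 88 on the 5p arm in TgAD library 1. miR-369 went from 77.2% and 73.9% to 51.7% and 42.5% of 3p reads (difference in log2 ratio -1.80, SE 0.291, limma adjusted p = 0.0169), and miR-154 from 66.9% and 67.0% to 42.4% and 46.9% (-1.33, SE 0.265, limma adjusted p = 0.0269). In miR-154 and in TgAD library 2 of miR-369 the 5p arm was thus the more abundant one. miR-154-5p itself was not called, at 359.6 and 366 CPM in WT and 293 and 199.9 in TgAD (log2 fold change -0.56, edgeR adjusted p = 0.144). Without 1 library its log2 fold change ran from -0.28 to -0.96, and it was called without TgAD library 1 (edgeR adjusted p = 0.0397), with total counts as library size (-0.80) and after the correction for GC content (-0.77).

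miR-382 had 76.9% and 77.0% of 3p reads in WT and 62.9% and 62.1% in TgAD (log2 ratio 1.74 in WT and 0.74 in TgAD, limma adjusted p = 0.0306), with miR-382-5p not called at 1335 and 1392 CPM against 1283 and 1893. In miR-541, where nearly all reads lie on the 5p arm, the 3p arm fell from 0.438% and 0.250% to 0.0952% and 0.0914% (difference in log2 ratio -1.80, limma adjusted p = 0.0352). The opposite shift, toward the 3p arm, was called in hairpins whose 3p arm already led. In miR-300 it went from 95.3% and 95.6% to 98.7% and 98.9% (difference in log2 ratio 1.97, SE 0.291, limma adjusted p = 0.0147).

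miR-381 and miR-410 also shifted to 3p, with a log2 ratio of 11.0 in WT and 12.7 in TgAD in miR-381 and of 7.08 and 8.58 in miR-410 (limma adjusted p = 0.0459 and 0.0915). Their 5p arms had few reads, 34 and 36 against 35 and 25 in miR-381 and 46 and 41 against 14 and 43 in miR-410. The arm whose share fell had the lower GC content in miR-369 (23.8% against 45.5%). The same held in miR-377, miR-154, miR-382 and miR-300 (36.4% against 50.0% in each) and in miR-381 (43.5% against 45.5%). In miR-541 (45.5% against 44.0%) and miR-410 (47.6% against 38.1%) that arm had the higher GC content. The part of GC content in the arm ratios was not tested. The direction of all 8 called hairpins was kept in all 8 alternative fits. Which hairpins were called varied, also without TgAD library 1, and so did the number called. Among the fits without 1 library it was smallest without WT library 1, in the cluster as among all hairpins. When the variance was fitted without a trend on abundance it was 2 of 31, beside 10 of all 197 hairpins. miR-377 and miR-300 were called in each of these fits.

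**Figure D3:**
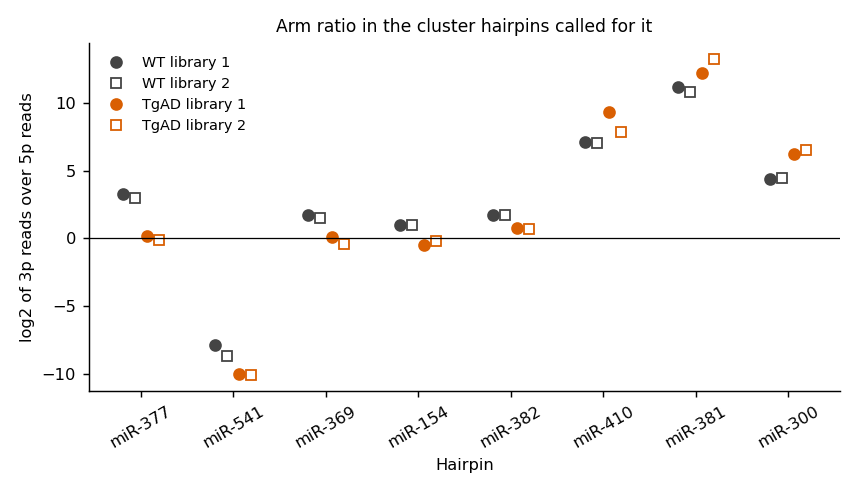
log2 of 3p reads over 5p reads in each library (WT grey, TgAD orange, circles for library 1 and squares for library 2) for the 8 cluster hairpins called for this ratio. The first 5 sit lower in TgAD and the last 3 higher, and the TgAD libraries of miR-377, miR-369 and miR-154 lie near 0, where both arms are equal.

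The lower and higher arms differed in base composition. Of the tested arms 56 of 59 in the cluster and 441 of 496 in all (88.9%) have a mature sequence in RefSeq. The median GC content was 36.4% in the 11 lower arms with a sequence, 45.5% in the 10 higher arms and 47.8% in the 35 arms not called. Of the 14 cluster arms under 40% GC, 8 were called lower and 0 higher, with a median log2 fold change of -0.97. Among all 75 tested miRNA under 40% GC, 42.7% were lower and 2.67% higher, with a median of -0.76. From 40 to 50% GC, 3 of 27 cluster arms were lower (11.1%) and 9 higher (33.3%), beside 20.8% and 15.7% of all 197 tested miRNA of that range. Over 50% GC, 0 of 15 were lower and 1 higher (6.67%), beside 4.73% and 21.3% of 169. Across arms, which are not independent replicates and share the same libraries, Pearson's r between GC content and log2 fold change was 0.44 in the cluster and 0.33 over the tested miRNA outside it (Spearman's rho 0.48 and 0.42). GC content thus moved with the fold change in both. Each library was then corrected for GC content. This correction also takes out any difference between the genotypes that goes with GC content, whatever its source. The part of GC content in the calls was therefore not tested.

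After that correction 10 of the 59 tested arms were lower and 12 higher, with 17 of the 22 calls shared. Of all 496 tested miRNA, 77 were lower and 78 higher after it. The calls of miR-369-3p, miR-376b-3p, miR-544-5p, miR-382-3p and miR-323-3p were lost, with log2 fold changes of 0.15, -0.35, -0.62, -0.11 and 0.32. miR-544-3p, miR-377-3p, miR-154-3p and miR-300-5p were still called at -1.59, -1.28, -1.24 and -1.03, and miR-381-3p at 1.24. miR-495-3p and miR-410-3p, both not called before, were at 0.77 and 0.94 and were called (edgeR adjusted p = 0.0287 and 0.0262). miR-376c-3p, which has no sequence here, was given the median GC content, so its value of -1.20 is not corrected for its own.

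**Figure D4:**
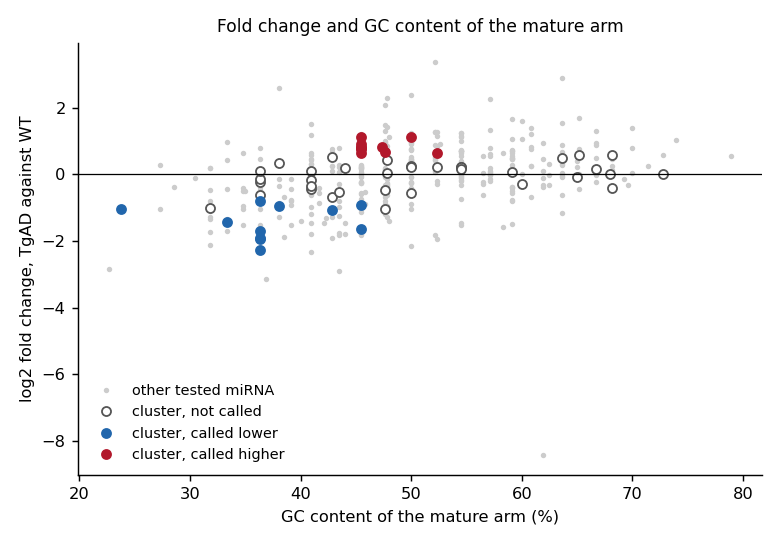
log2 fold change between TgAD and WT against the GC content of the mature arm, for the cluster arms with a sequence (circles, filled where called) and all other tested miRNA (grey dots). Of the 14 cluster arms left of 40% GC none was called higher, and the grey dots also lie mostly under 0 there.

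Both directions were found along the whole cluster. Upstream of Mirg 7 of 36 tested arms were lower and 8 higher (median log2 fold change -0.07), and within Mirg 5 of 23 were lower and 2 higher (median 0.03). A split chosen after the values were seen, at the gap between miR-667 and miR-376c, gave 2 lower and 7 higher arms of 22 on the miR-379 side (median 0.22) and 10 lower and 3 higher of 37 on the other (median -0.36). The median GC content of both sides was 46.4% and 44.7%. Of the more abundant arm of each hairpin, 8 of 35 were lower and 7 higher (median 0.15), and of the minor arms 4 of 24 were lower and 3 higher (median -0.25). Over all tested miRNA, 44 of 281 more abundant arms were lower and 50 higher (median 0.13), and 22 of 138 minor arms were lower and 21 higher (median -0.04).

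**Figure D5:**
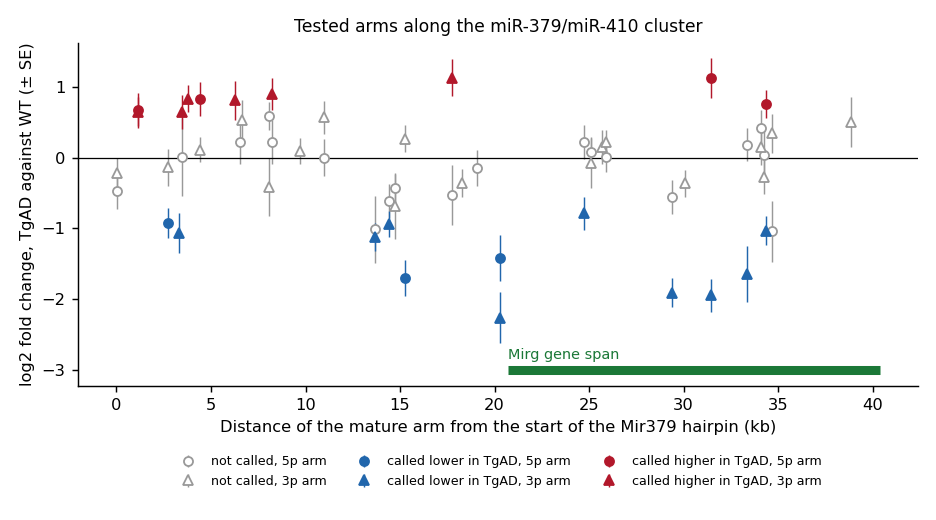
log2 fold change between TgAD and WT with its SE for the 59 tested arms, by distance in kb from the start of the Mir379 hairpin, with circles for 5p and triangles for 3p arms and the span of the Mirg gene in green. Of the 10 higher arms (red) 7 are among the 22 tested arms from miR-379 to miR-667. Of the 12 lower arms (blue) 10 are among the 37 tested arms from miR-376c on. This split was chosen after the values were seen. Both colours occur at miR-377 and miR-369 within Mirg.

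Several of the best known members were not called. miR-134-5p, which limits the size of dendritic spines by repressing Limk1, had 1060.2 and 1049.9 CPM in WT and 1282 and 952 in TgAD (log2 fold change 0.08, SE 0.213, edgeR adjusted p = 0.806). The TgAD libraries lay on both sides of the WT libraries. miR-134-3p was at about 10 CPM in each genotype, 10.8 ± 3.21 in WT and 10.3 ± 0.874 in TgAD (SD, n = 2).

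miR-485, which acts at the presynapse, had both arms uncalled. miR-485-5p was at 245 ± 11.4 CPM in WT and 245 ± 33.7 in TgAD, and miR-485-3p at 349.7 ± 6.87 and 405 ± 3.35 (SD, n = 2), with log2 fold changes of 0.00 and 0.21. miR-379-5p, the first arm of the cluster and its second most abundant, had 5258 and 7872 CPM in WT and 4316 and 5192 in TgAD (log2 fold change -0.47, SE 0.257, edgeR adjusted p = 0.247). Its genotypes did not overlap, but the WT libraries differed more from each other than the nearer libraries of both genotypes did. It was called lower under total-count scaling (log2 fold change -0.73) and without WT library 1 (-0.71).

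miR-410-3p had 2775 and 1852 CPM in WT and 3396 and 2468 in TgAD, which overlap (log2 fold change 0.34, edgeR adjusted p = 0.407). miR-495-3p, a repressor of Bdnf, had 3064 and 3119.9 against 3199 and 3419.6 (log2 fold change 0.10). Nor was a call made in the abundant miR-300-3p, with 4461 and 4138 against 5411 and 4928 (0.27), in miR-541-5p, with 3672 and 4239.9 against 3823 and 5164 (0.18), or in miR-487b-3p, with 1925 and 1653 against 1304 and 1481 (-0.36). A p that misses the threshold does not show that the levels were equal. miR-329-3p, the partner of the higher miR-329-5p, was at 703 ± 0.542 CPM in WT and 757 ± 19.1 in TgAD (SD, n = 2, log2 fold change 0.11).

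The 3p arms of miR-379 and miR-411 share the seed shown above and would pair with the same sites. miR-411-3p was called higher, while miR-379-3p had 134 and 156 CPM in WT and 119 and 131 in TgAD (log2 fold change -0.22, edgeR adjusted p = 0.481). The difference between both arms was not tested. The call of miR-411-3p was lost in each of the 4 fits without 1 library, and after the correction for GC content both log2 fold changes were above 0, at 0.75 in miR-411-3p and 0.45 in miR-379-3p. miR-410-5p, at -1.04, was the uncalled arm with the largest fold change, and it rests on 46 and 41 reads in WT and 14 and 43 in TgAD. It was called lower in 7 of the 12 alternative fits of the count tables, among them those without WT library 2 and without TgAD library 2 (log2 fold change -1.67).

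The 18 arms left out of the test had too few reads. Of these 8 had no read, which are both arms of miR-299a and miR-299b, miR-1197-5p, miR-758-5p, miR-654-5p and miR-496b, and 10 had at most 38 reads over the 4 libraries together. miR-495-5p had 9 and 5 reads in WT and 2 and 1 in TgAD, which is at or under the floor of 3 reads in both TgAD libraries.

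The rest of the imprinted domain could not be set beside the cluster. All 35 listed rows of its other miRNA, among them miR-127, miR-434, miR-136 and miR-433, had 0 reads in all 4 libraries, as did all 38 rows that RefSeq places between the start of Meg3 and the cluster. Zeros were frequent where a read can fit more than 1 listed arm or genomic copy. In 26 of 33 pairs of arms that overlap on opposite strands both arms had 0 reads, which was not counted for other pairs. Of the rows with several genomic copies 30 of 53 were at 0, against 646 of 1622 rows with 1 copy. Of the 4 miRNA named here, miR-136 is in an opposite-strand pair, while miR-127, miR-434 and miR-433 are in none. The part of the counting in these zeros was not tested.

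The cultures were checked against marker miRNA of cell types. Of 7 neuron markers miR-9-5p was at 0 and miR-124-3p had 1, 2, 7 and 4 reads, while miR-128-3p and miR-132-3p were abundant and called higher in TgAD. miR-138-5p was at 1654 and 1225 CPM in WT and 1214 and 651 in TgAD, lower in both TgAD libraries but not called (log2 fold change -0.63, edgeR adjusted p = 0.226). miR-218-5p and miR-129-5p overlapped between the genotypes and were not called. The summed level of the list was 22071 and 35919 CPM in WT and 88224 and 63411 in TgAD, most of it miR-128-3p. All 3 oligodendrocyte markers were at 0. The 3 myeloid markers summed to between 9.96 and 14.7 CPM, with miR-142a-3p at 0, and the 4 vessel and mural markers to between 718 and 901, with both arms of miR-126a at 0. The 3 red blood cell markers summed to 1310.0 and 1331 in WT and 957 and 646 in TgAD, nearly all of it miR-451a, which was called lower. The markers miR-9-5p, miR-338-3p, miR-219a-5p, miR-142a-3p and miR-126a-3p are among the arms with an opposite-strand partner where both are at 0, so that their zeros cannot be read as absence. The sums of the neuron and red blood cell lists differed between the genotypes mainly through miR-128-3p and miR-451a, and their part in the changes of the cluster was not tested.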

How the data were processed

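Small RNA libraries of 2 WT and 2 TgAD cultures of cortical neurons were used, with groups and replicate numbers from the sample labels. The authors mapped adapter-trimmed 50 bp reads to GRCm38 (GRCm38.p6 in the submitters' processing notes) with Bowtie2 without mismatch, used HTSeq-count with the miRBase annotation of mature miRNA, and deposited 1 table of raw counts per library. A second table deposited by the authors holds a normalized signal, equal to counts divided by a size factor, from which whole reads were recovered. Its columns did not match the libraries they are named for, and it was used only as an alternative. How reads with several matches were counted is not given in the sources used here.

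Counts of all 1966 rows were fitted with edgeR 4.0.16 in R 4.3.3, with TMM scaling, filterByExpr (496 rows tested), the quasi-likelihood test with genotype as the only factor and 2 residual degrees of freedom, and Benjamini-Hochberg adjustment over all tested rows. The SE of a log2 fold change is its absolute value over the root of F. CPM use the TMM-scaled library size. Arm ratios, log2 of 3p over 5p reads with 0.5 added to each, were tested with limma 3.58.1 with a trend. A p reflects the spread between single embryos, with 2 per genotype. In both tests the variance of a row or hairpin is drawn toward that of the others tested, so a p rests partly on their spread. The procedure was tested on simulated counts. Alternatives were RLE or total-count scaling, other filters, DESeq2 1.42.0, the robust option, the replicate number as a block, a local regression on GC content (span 0.75), the normalized table, and leaving out each library.

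The cluster, its lists and the tests were chosen with earlier results of these data known. Named are the arms past the stringent cutoffs, the 10 lowest and 10 highest called arms without overlap, the 10 most abundant arms, both arms of listed hairpins, and hairpins called for the arm ratio. Hairpins and mature sequences are from RefSeq (GRCm38.p6), and host genes from GENCODE M21.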

Additional observations from a re-analysis of the deposited data

How the results depend on the processing

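The fit reported called 22 arms, 12 lower and 10 higher. RLE scaling, 2 other filters on low counts, DESeq2 and the robust option gave 21 to 23 called arms. Total counts as library size gave 19 lower and 2 higher, with a median log2 fold change of -0.26. Over all tested miRNA it gave 122 lower and 43 higher. The GC correction gave a median of -0.072. The cutoffs of 1 and 0.01 left 3. Leaving out 1 library gave 13 to 20 called arms (11 to 13 lower, 2 to 7 higher), medians from -0.24 to 0.065, differences in the share of reads from 0.925 to 2.29 percentage points, and 2 to 8 hairpins with a changed arm ratio. Each such fit has 1 residual degree of freedom and takes the lone library to vary like the other genotype. Arm ratios without a trend gave 2 of 31 hairpins, beside 10 of 197 among all hairpins. The share of reads differed by 4.04 points without miR-99a-5p.

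With reads recovered from the normalized table and its columns taken by name, 0 arms were called by edgeR (0 lower, 0 higher, 9 at an unadjusted p under 0.05), with a median of 0.10, and the share of reads differed by -0.599 points. By construction this setting mixes the genotypes as the count tables label them.

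The replicate numbers are not said to mark a shared litter or day. The fit with a replicate block gave 14 lower and 10 higher arms, with all 22 calls kept, a median of -0.0046 and 10 hairpins with a changed arm ratio. Deviations of same-numbered libraries correlated with r = 0.216, over 2 pairs that by construction give the same value.

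Of the called arms, miR-369-3p alone turned its direction (0.15 after GC correction). Named arms that were not called also changed sign, and so did others that are not named. With total counts the named ones were miR-329-3p (-0.15), miR-495-3p (-0.17), miR-382-5p (-0.064), miR-134-5p (-0.16), miR-485-5p (-0.25), miR-485-3p (-0.047) and miR-541-5p (-0.092). With the GC correction these were miR-379-3p (0.45), miR-376b-5p (0.054), miR-376a-5p (0.0019), miR-382-5p (-0.012), miR-134-5p (-0.19), miR-485-5p (-0.072) and miR-485-3p (-0.084). With the normalized table they were miR-379-5p (0.19), miR-300-3p (-0.083), miR-487b-3p (0.012), miR-134-5p (-0.19), miR-134-3p (0.10) and miR-410-3p (-0.29). miR-485-5p was also at -0.034 with no filter, -0.012 with at least 10 reads, -0.020 with DESeq2 and -0.0046 with the replicate block. Without 1 library the log2 fold changes ran from -1.25 to 0.18 in miR-376a-3p, -0.058 to 0.37 in miR-382-5p, -0.25 to 0.31 in miR-134-5p, -0.33 to 0.26 in miR-134-3p, -0.24 to 0.17 in miR-485-5p, -0.020 to 0.29 in miR-541-5p and -0.0027 to 0.68 in miR-410-3p. For these arms the cause was not tested. Arms near the floor of 3 reads, and fold changes of arms with fewer than 50 reads, are limited by depth.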
